A study of Homo sapiens with 12 samples.

Results

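Among the 13617 circRNA probes of the array, 7594 were well above background on all 12 arrays, and 78 of these read higher with cytokines at both times of exposure. The 78 circRNAs were chosen by their measured values: at 24 h and again at 48 h, the lowest of the 3 cytokine arrays had to exceed the highest of the 3 untreated arrays, and the mean difference had to reach 0.8 on the log2 scale, a 1.74-fold change. The cytokine changes given for them are therefore a description and carry no test. The rule took 1.03% of the always detected probes. Its mirror image, with cytokine arrays lower at both times, took 12 probes (0.158%).

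A circRNA is a closed RNA loop, made when a splice donor is joined to an acceptor upstream of it. It has no free end, so the exonuclease RNase R, which degrades most linear RNA, leaves it largely intact, and circular RNA outlasts most linear transcripts in cells. IL-1β and IFN-γ are the cytokines most often used to model the inflammation of pancreatic islets in type 1 diabetes. IL-1β acts mainly through NF-κB, and together the cytokines stress and kill β-cells.

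EndoC-βH1 is an immortalized human β-cell line, so every array is of one cell line. Its 4 groups of 3 arrays were untreated cells at 24 h (Control 24 h) and at 48 h (Control 48 h), and cells given 50 U/mL IL-1β with 1000 U/mL IFN-γ at 24 h (Cyt 24 h) and at 48 h (Cyt 48 h). Total RNA of all groups was digested with RNase R before labelling. The treatment labels of the Cyt 48 h arrays state an exposure of 24 h, whereas their titles and the methods give 48 h, which is used here. Nothing in the labels says whether replicates came from separate cultures, so the p-values measure only the spread between these samples. Levels are log2 intensities of the background-subtracted signal after quantile normalization over the circRNA probes, in which a difference of 1 is a doubling. Each circRNA is identified by its probe, since no table used here pairs probes with host genes or sequences.

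The median circRNA signal of an array lay between 25 and 37 intensity units over a local background of 14 to 16, and each array detected 8735 to 10226 circRNA probes well above background. Of 936 member spots, 0 were flagged as saturated or non-uniform, and the scanner software's own error of a member spot was 10.2% of its signal in the median. All Cyt 48 h arrays and the third Control 48 h array were scanned on a later day than the other 8 arrays. Each scan day is taken here as 1 slide, the first and the second, which the labels do not state. The second Cyt 24 h array had a separate scan run. Probes named as circRNA controls read lower by a mean of 0.39 on the Cyt 24 h arrays (7.34 to 7.44) than on the Control 24 h arrays (7.73 to 7.85), and by 0.05 at 48 h, on a scale set over all spots that are not controls of the maker. The members moved the other way, and the part of the control probes' shift in the changes was not tested. Only 1 of 27 markers of pancreatic cell types, SPP1 of duct cells, and 0 of 43 genes of the response to IFN-γ and IL-1β had a linear mRNA probe, so neither the cell type nor the cytokine response could be checked on these arrays.

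The median level over the 78 members separated the treated from the untreated arrays at both times, which the rule fixes in advance. Only the levels are informative here. It read 4.65, 4.79 and 4.74 on the Control 24 h arrays, against 6.84, 6.58 and 6.28 on the Cyt 24 h arrays. At 48 h it read 4.81, 5.07 and 4.90 on the untreated arrays, against 6.66, 6.70 and 6.56 on the cytokine arrays. The median over all always detected probes stayed between 5.29 and 5.32 on every array. In untreated cells 49 of 78 members had a level under the median of always detected probes, and with cytokines 62 of 78 had a level above it. Not every member crossed that median, and the rise itself follows from the rule.

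**Figure D1:**
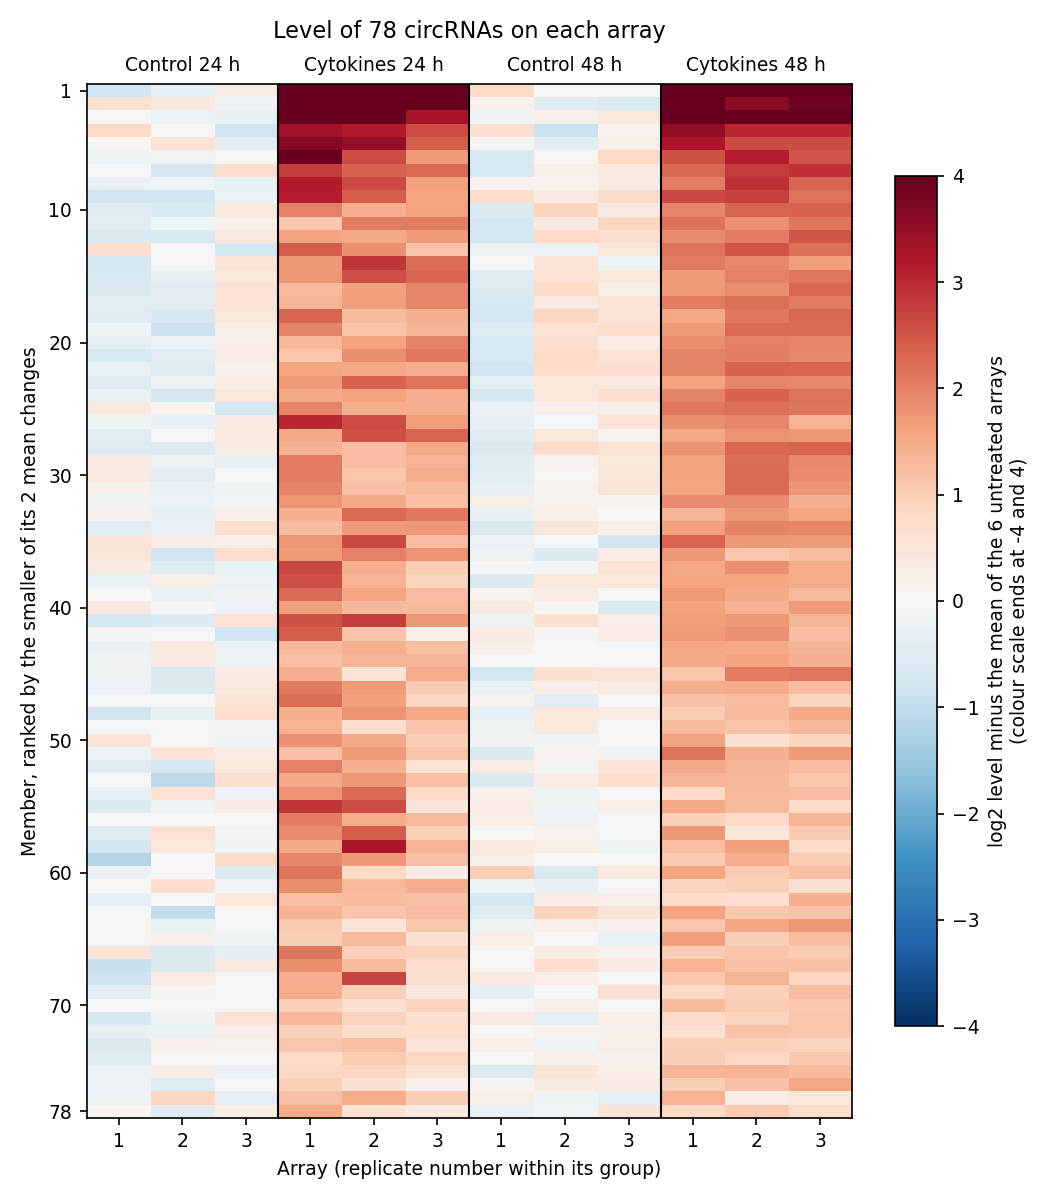
Level of each of the 78 circRNAs (rows, ranked by the smaller of its 2 mean changes) on each of the 12 arrays (columns, by group and replicate number), as the log2 difference from the mean of its 6 untreated arrays. Red covers the cytokine columns at both times, with the deepest red in the top rows, while the untreated columns stay pale.

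Over the members the change ran from 0.83 to 5.84 at 24 h, with a median of 1.68, and from 0.80 to 4.72 at 48 h, with a median of 1.51. The median change of all always detected probes was -0.08 at 24 h and 0.02 at 48 h. Most members lay close together, since 53 had a smaller change of 1 to 2 and 17 one under 1, while 8 reached at least 2, 4 at least 3 and 3 at least 4 at both times. Separation also varied. In 21 members a gap of at least 1 divided the lowest cytokine array from the highest untreated array at both times, and the narrowest gap was 0.05. In 68 members all 6 cytokine arrays exceeded all 6 untreated arrays whatever the time. Among the always detected probes, 8.43% had cytokine arrays wholly above untreated arrays at 24 h, 11.1% at 48 h, 2.78% at both times, and 1.79% had all 6 above all 6.

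ASCRP3002713 had the largest change at both times. Its level was 3.49, 3.91 and 4.56 on the Control 24 h arrays and 9.83, 10.04 and 9.60 on the Cyt 24 h arrays. At 48 h it was 5.05, 4.26 and 4.21 untreated and 9.59, 8.96 and 9.12 with cytokines. The groups were far apart, with a gap of 5.04 between the nearest arrays at 24 h and 3.91 at 48 h. Group means rose from 3.98 ± 0.54 to 9.82 ± 0.22 (SD, n = 3) at 24 h, 57.2-fold, and from 4.51 ± 0.47 to 9.23 ± 0.33 at 48 h, 26.3-fold. Before normalization its spot gave 10.1 to 28.3 intensity units on the untreated arrays and 429 to 1134 on the cytokine arrays, so the probe went from close to background to clearly lit. Its size depended on the signal used: the log2 changes of 5.84 and 4.72 were 4.72 and 3.87 in the authors' deposited values, which follow the signal before background subtraction, and 3.79 and 3.10 with normexp background correction.

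ASCRP3000517 and ASCRP3001732 followed, with nearly equal changes. ASCRP3000517 read 4.86, 4.65 and 4.08 on the Control 24 h arrays and 8.74, 8.93 and 8.47 on the Cyt 24 h arrays, then 4.42, 3.85 and 3.68 untreated and 8.23, 7.84 and 8.14 with cytokines at 48 h. Its lower level at 48 h held in both conditions, so that its change stayed at 4.18 and 4.09. ASCRP3001732 read 5.26, 4.98 and 4.93 on the Control 24 h arrays and 9.86, 9.36 and 8.51 on the Cyt 24 h arrays, then 5.07, 5.42 and 5.65 untreated and 9.41, 9.42 and 9.53 with cytokines at 48 h. The third Cyt 24 h array was its lowest treated one, and the change was 4.19 at 24 h and 4.08 at 48 h. In the deposited values the log2 changes were 3.37 and 2.99 for ASCRP3000517 and 3.55 and 3.59 for ASCRP3001732, and with normexp 2.63 and 2.18, and 2.93 and 2.97.

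ASCRP3010095 and ASCRP3004224 were dimmer and changed by about 3. The first read 4.44, 3.72 and 2.89 on the Control 24 h arrays and 7.02, 6.82 and 6.27 on the Cyt 24 h arrays, then 4.27, 2.78 and 3.79 untreated and 7.20, 6.65 and 6.65 with cytokines at 48 h. The second read 4.04, 4.55 and 3.60 on the Control 24 h arrays and 7.63, 7.52 and 6.40 on the Cyt 24 h arrays, then 4.03, 3.54 and 4.18 untreated and 7.22, 6.61 and 6.59 with cytokines at 48 h. Untreated arrays spread widely for ASCRP3010095 (SD 0.78 at 24 h and 0.76 at 48 h), yet none came near the treated ones. Changes were 3.02 and 3.22 for ASCRP3010095 and 3.12 and 2.89 for ASCRP3004224 at 24 h and 48 h. In the deposited values the log2 changes were 1.92 and 2.01 for ASCRP3010095 and 2.17 and 1.84 for ASCRP3004224, and with normexp 1.25 and 1.31, and 1.5 and 1.23.

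**Figure D2:**
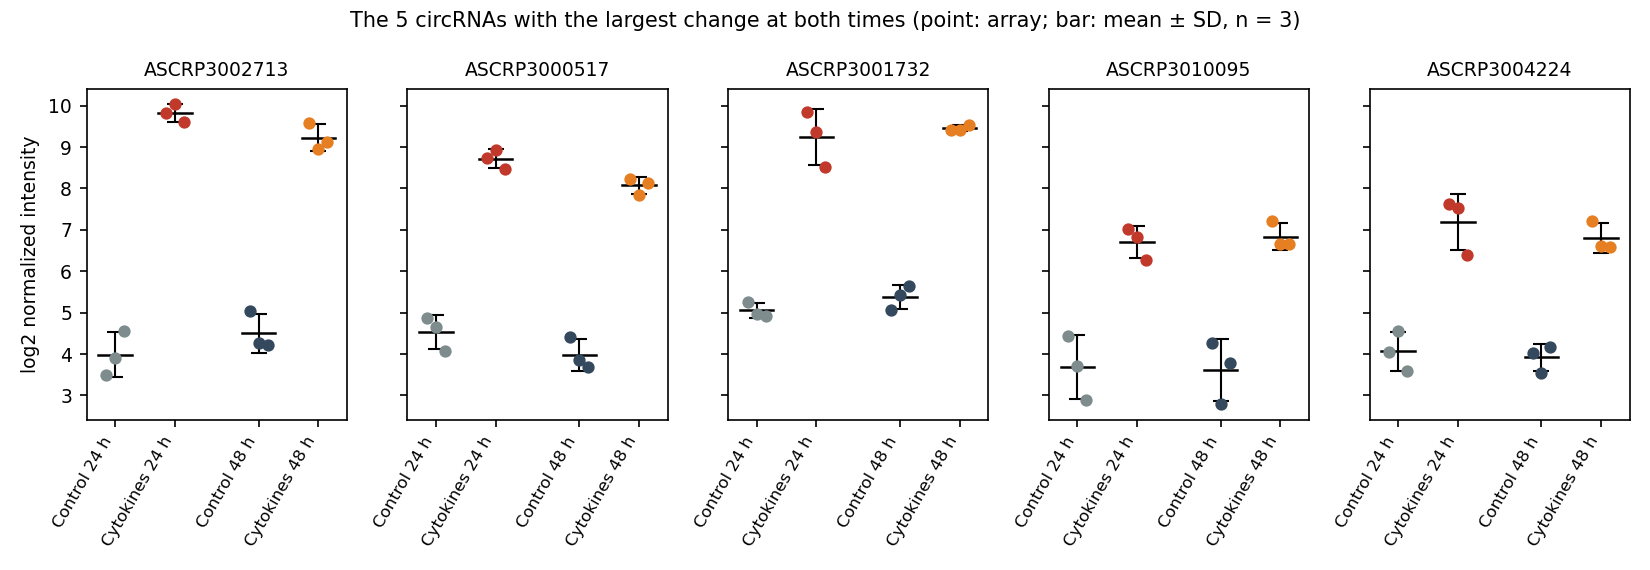
log2 normalized intensity (vertical axis) of the 5 circRNAs with the largest smaller change in the 4 groups (horizontal axis); points are arrays and bars the mean ± SD of 3. For ASCRP3002713 the untreated points lie between 3.49 and 5.05 and the cytokine points between 8.96 and 10.04, and in no panel do treated and untreated points overlap.

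At the threshold the changes shaded into those of probes that were left out. Just inside lay ASCRP3006431, with changes of 0.84 at 24 h and 0.80 at 48 h, ASCRP3010219, with 1.12 and 0.81, and ASCRP3011148, with 0.83 and 0.99. Just outside lay ASCRP3000392, with 1.23 and a value that rounds to 0.80 but lay below 0.8, ASCRP3000592, with 0.80 and 0.79, and ASCRP3009473, with 0.79 and 0.88. The array values of these last members nearly met. ASCRP3006431 read 3.88, 3.39 and 4.04 on the Control 24 h arrays against 5.29, 4.38 and 4.14 on the Cyt 24 h arrays, and 3.54, 3.70 and 4.33 against 4.61, 4.86 and 4.51 at 48 h. A minimum difference of 0.6 would have taken 116 probes and one of 1 would have taken 61.

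The brightest untreated member was ASCRP3007349, which read above 97.5% of always detected probes in untreated cells. Its level was 9.41, 9.23 and 10.36 on the Control 24 h arrays and 12.22, 11.15 and 11.32 on the Cyt 24 h arrays. At 48 h it was 9.21, 10.76 and 10.43 untreated and 11.45, 12.02 and 12.19 with cytokines. The dimmest, ASCRP3008768, read 2.83, 3.09 and 2.54 on the Control 24 h arrays against 5.21, 3.87 and 3.36 on the Cyt 24 h arrays, and 4.02, 2.50 and 3.48 against 4.66, 4.11 and 4.28 at 48 h. Their untreated levels span the members' whole range, with means over 6 arrays of 9.90 and 3.08.

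The largest changes were those of dim and middling members, and no bright member reached a smaller change of 2. The smaller change had a median of 1.14 in the 24 members with an untreated level under 4, of 1.36 in the 37 members between 4 and 6, and of 1.62 in the 17 members at 6 or more. The largest smaller change was 3.02, 4.72 and 1.92 in these bands. The bands also differed in how far the sizes depended on the signal used. In the deposited log2 values the 17 bright members changed by a median of 1.61 at 24 h and 1.70 at 48 h, against 1.73 and 1.83 here. The 24 dim members changed by 0.79 and 0.60 in the deposited values, against 1.56 and 1.19 here. In those values all 78 members were higher with cytokines on average at both times and 75 did not overlap. The deposited values come from the same spots that chose the members, so these counts are not separate support. Only 50 met the whole rule: 16 of the 17 bright, 26 of the 37 middling and 8 of the 24 dim members.

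**Figure D3:**
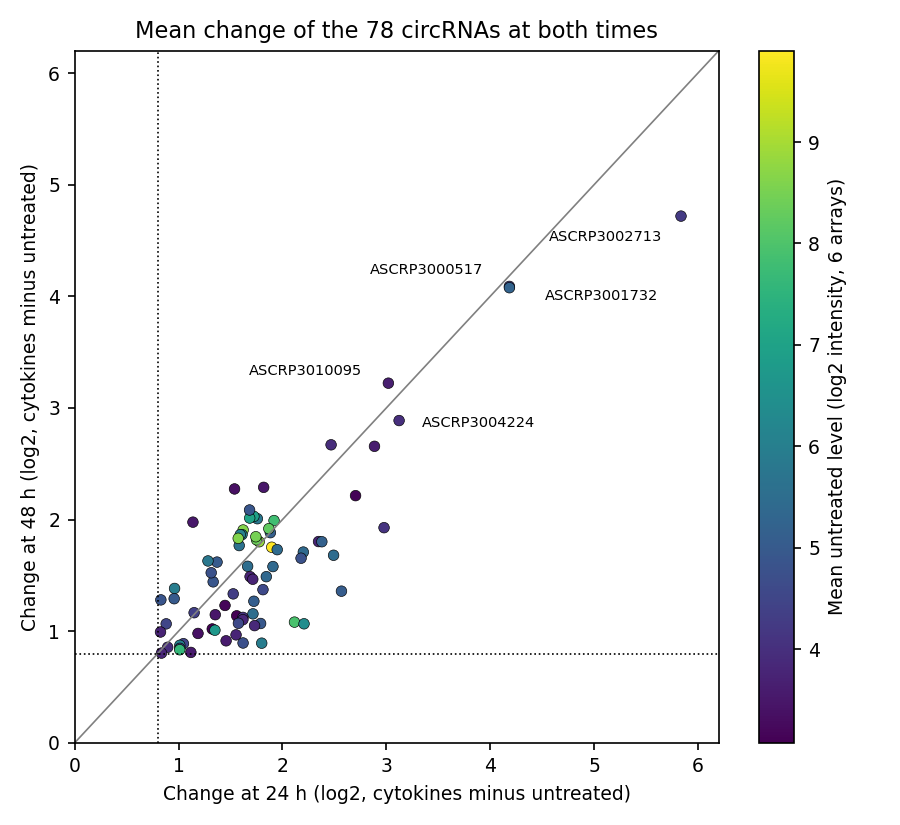
Mean log2 change with cytokines at 24 h (horizontal axis) against 48 h (vertical axis) for the 78 circRNAs, coloured by untreated level; dotted lines mark the minimum of 0.8 and the grey line equal changes. In 53 circRNAs the smaller change lies between 1 and 2, 3 circRNAs reach at least 4 on both axes, and 49 of the 78 points are below the line of equal changes.

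The change at 48 h was smaller than that at 24 h in 49 members and larger in 29, with a median difference of -0.17 (range -1.21 to 0.84). The median over all 10211 probes retained for fitting was 0.02. The order depended on 1 array: without the first Cyt 24 h array, 38 members had the smaller change at 48 h and the median difference was 0.04, whereas without the first Control 48 h array 62 did. Tested in limma across all retained probes, where a call needs a log2 difference of 1 or more in size and an adjusted p (Benjamini-Hochberg) under 0.05, 0 members and 0% of probes were called. At an unadjusted p under 0.05 there were 2 members, beside 10.1% of all retained probes. The rule bears on this contrast, because it kept only probes that rose by at least 0.8 at both times. Probes that changed at 1 time alone could not be members, so these shares are not comparable. Array weights were the only alternative of those run that called a member here.

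The most negative difference was that of ASCRP3012433, which changed by 2.57 at 24 h and 1.36 at 48 h. It read 4.36, 4.50 and 5.62 on the Control 24 h arrays and 7.59, 7.81 and 6.78 on the Cyt 24 h arrays, then 4.85, 5.68 and 5.33 untreated and 6.72, 6.79 and 6.42 with cytokines at 48 h. The difference of -1.21 (SE 0.53) had an adjusted p of 0.484 in limma. With array weights, a fit that called 407 of all retained probes in this contrast, it was called at -1.82 (SE 0.42, adjusted p 0.0410). The most positive difference was that of ASCRP3009680, at 0.84 (SE 0.43, limma adjusted p 0.509), which read 3.30, 4.06 and 3.82 against 4.72, 5.22 and 4.66 at 24 h and 2.96, 3.67 and 3.33 against 5.71, 4.95 and 5.23 at 48 h. Without array weights neither difference between the times passed the test. With a median SE of 0.49 for this contrast, a member would have needed a large difference to do so.

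Levels under the same condition were also set against each other across the times. In untreated cells 62 of the 78 members read higher at 48 h than at 24 h, with a median difference of 0.20, while 52.4% of always detected probes did so, with a median of 0.02. Because the rule used the values of these same arrays, shares of members and of all probes are not strictly comparable, here and in the limma counts below. Leaving out 1 array at a time gave 52 to 62 members, and the other signals and scalings 58 to 63. The size of the median difference rested on single arrays: it was 0.10 without the first Control 24 h array, 0.11 without the third Control 48 h array, which was on the second slide, 0.29 without the third Control 24 h array and 0.32 without the first Control 48 h array. In the other signals it was 0.08 with normexp, 0.12 with the median signal and 0.13 in the deposited values. In limma 0 members and 0% of retained probes were called in this contrast, and at an unadjusted p under 0.05 there was 1 member, ASCRP3008912, beside 3.16% of probes. It read 3.32, 3.35 and 3.86 on the Control 24 h arrays and 4.79, 4.42 and 4.87 on the Control 48 h arrays, which do not overlap, a difference of 1.19 (SE 0.35) with an adjusted p of 0.999.

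With cytokines 44 members read higher at 48 h and 34 lower, with a median difference of 0.05, close to the 0.07 of all always detected probes. In limma 0 members and 0% of retained probes were called, and 4 members, ASCRP3008379, ASCRP3011148, ASCRP3000517 and ASCRP3001475, had an unadjusted p under 0.05, beside 11.9% of probes. These shares too are not strictly comparable, since the rule used the values of the same arrays. The lowest adjusted p was 0.354, for ASCRP3008379, which read 8.57, 8.01 and 8.16 on the Cyt 24 h arrays and 7.61, 7.67 and 7.37 on the Cyt 48 h arrays. Its fall of 0.70 (SE 0.26) went with lower untreated levels, at 6.69, 7.39 and 6.62 and then 6.53, 6.43 and 6.66. With array weights 1 member was called, ASCRP3009990, at -1.64 (SE 0.41, adjusted p 0.0316), in a fit that called 571 of all retained probes.

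Time and slide cannot be fully told apart for the cytokine arrays, since the Cyt 48 h arrays shared a slide with 1 untreated array. Within that second slide, the order of the arrays is fixed by the rule, which put every Cyt 48 h array above every Control 48 h array. The size is bound by the rule as well, which asked for a mean difference of at least 0.8 over all 48 h arrays, these among them. Against the single untreated array the change had a median of 1.36 (range 0.33 to 5.01) and reached 0.8 in 70 of 78 members. These values describe the members and are no separate check on the slide. The third Control 48 h array read above the mean of the other untreated 48 h arrays in 59 members, by a median of 0.23. The change of the members' median level at 48 h was 1.73 within the second slide and 1.71 over all 48 h arrays.

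In the contrasts that chose the members, limma called 48 of the 78 at 24 h and 42 at 48 h, all higher with cytokines, beside 1.11% and 0.842% of all retained probes called higher. These counts moved with single arrays. At 24 h they were 26 and 22 without the first or second Control 24 h array, 25 and 23 without the first or second Cyt 24 h array, and 28, 28 and 27 without the first, the second or the third Cyt 48 h array. At 48 h they were 16 and 26 without the first or the third Control 48 h array, and 22, 12 and 15 without the first, the second or the third Cyt 48 h array. With the slide as a block 4 members were called at 48 h, beside 19 of all retained probes. Calls over all fitted probes, in either direction, fell as well in these leave-outs. They numbered 127 at 24 h and 100 at 48 h with every array. In the leave-outs listed here they numbered 64 to 81 at 24 h and 43 to 68 at 48 h. Leaving out other arrays did not always lower the counts. Without the third Control 24 h array 53 members and 337 of all fitted probes were called at 24 h, and without the third Cyt 24 h array 61 and 442. At 48 h 46 members and 118 probes were called without the first Cyt 24 h array.

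Single arrays also ordered the members differently from the other probes. The third Cyt 24 h array was the lowest of its group in 47 members (60.3%) and in 32.2% of always detected probes. The first Control 48 h array was the lowest of its group in 47 members (60.3%) and in 34.1% of always detected probes, and the third Control 24 h array the highest in 41 members (52.6%) and in 34.3%.

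In the median, replicates of untreated cells spread more for the members than for all always detected probes, while replicates with cytokines spread about equally. The SD within a group, averaged as a variance over both times, had a median of 0.44 in untreated cells for members and 0.32 for all always detected probes. With cytokines both medians were 0.35. The contrast was widest among the bright probes: at an untreated level of 6 or more the untreated SD had a median of 0.56 in 17 members and of 0.28 in 2642 always detected probes, and 16 of the 17 members exceeded the latter. With cytokines these 17 members had a median SD of 0.25 and the always detected probes of that band 0.33, and 6 of the 17 exceeded it. In the band under 4 the members' median SD was above that of the always detected probes both untreated, at 0.46 against 0.37, and with cytokines, at 0.46 against 0.39, where 15 of 24 members exceeded the latter. Between 4 and 6 it was 0.40 against 0.33 untreated and 0.35 against 0.36 with cytokines. ASCRP3007349, whose untreated values ran from 9.21 to 10.76, was one of these bright members. The rule used the values of these same arrays. In addition, 7 of the 17 bright members belong to set A and 3 to set B, described below, whose members deviated together over the arrays. The SDs of these members are therefore not separate observations.

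Some members shared their spread over the arrays. For each member the deviation of each array from its group mean was taken, and the deviations of members were correlated over the 12 arrays, which share their labelling, hybridization and normalization. Among 3003 pairs, r ran from -0.92 to 0.99 with a median of 0.17. It exceeded 0.9 in 46 pairs (1.53%), which involved 32 members, and 0.8 in 159 pairs (5.29%). Among all 28830621 pairs of always detected probes, 0.604% exceeded 0.9 and 2.99% exceeded 0.8, and the median was -0.01. The closest pair was ASCRP3000190 and ASCRP3010123, with r = 0.99. ASCRP3000190 read 4.55, 4.85 and 5.59 on the Control 24 h arrays, 6.91, 7.75 and 7.48 on the Cyt 24 h arrays, 4.65, 5.72 and 5.57 on the Control 48 h arrays and 6.85, 7.19 and 7.31 on the Cyt 48 h arrays. ASCRP3010123 read 4.92, 5.18 and 5.71, then 7.09, 7.77 and 7.56, then 5.0, 5.82 and 5.78, and then 7.02, 7.36 and 7.34 on the same arrays. The spots of the 46 pairs lay 12 to 179 grid positions apart, with a median of 55.5, against 63 for all member pairs on a grid of 192 rows by 82 columns.

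An average-linkage tree of the deviations, divided at an r of about 0.7 after the values had been seen, gave 5 sets of at least 5 members, which hold 40 of the 78. No test was made of these sets. Set A holds 11 members, among them ASCRP3007349 and 7 of the 17 bright members. Its median level was 6.80, 6.44 and 7.50 on the Control 24 h arrays and 6.40, 7.64 and 7.73 on the Control 48 h arrays. The third Control 24 h array was the highest of its group in 11 of 11 of these members, and the first Control 48 h array the lowest of its group in 11 of 11. With cytokines the arrays of set A lay closer together, at 8.57, 8.68 and 8.50 at 24 h and 9.03, 9.41 and 9.26 at 48 h.

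Set B holds 10 members, with ASCRP3000190 and ASCRP3010123 among them. Its high untreated arrays were the same as in set A, with medians of 4.87, 5.21 and 5.96 at 24 h and 5.07, 6.05 and 5.99 at 48 h. The lowest Control 24 h array was the first in 10 of 10 members, and in set A the second in 10 of 11. Set B also differed with cytokines, where the first Cyt 24 h array was the lowest of its group in 10 of 10 members, with medians of 7.02, 7.60 and 7.55. At 48 h with cytokines its medians were 7.35, 7.42 and 7.34. Over the pairs of 1 member of set A and 1 of set B, r had a median of 0.68.

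Sets C, D and E were high on the first Cyt 24 h array, where set B was low. Set C holds 8 members, including ASCRP3012433 and ASCRP3008912, and its medians fell on the third Cyt 24 h array, at 7.20, 6.66 and 5.89, where 8 of 8 members were lowest. Set D holds 6 members, including ASCRP3006431, with 7.83, 6.83 and 6.65 on these arrays, and its first array was the highest in 6 of 6. Set E holds 5 members, including ASCRP3001732, with 6.34, 5.76 and 4.92, and 5 of 5 were lowest on the third array. On the Cyt 48 h arrays set C read 6.63, 6.68 and 6.29, set D 7.06, 7.54 and 7.13, and set E 5.34, 6.03 and 5.71. The median change was 1.92 at 24 h and 1.25 at 48 h in set C, and 2.70 and 2.21 in set E. In sets A, B and D it was 1.73 and 1.91, 1.83 and 1.80, and 1.59 and 1.63. Whether members of a set share a host gene could not be read from the files used here.

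**Figure D4:**
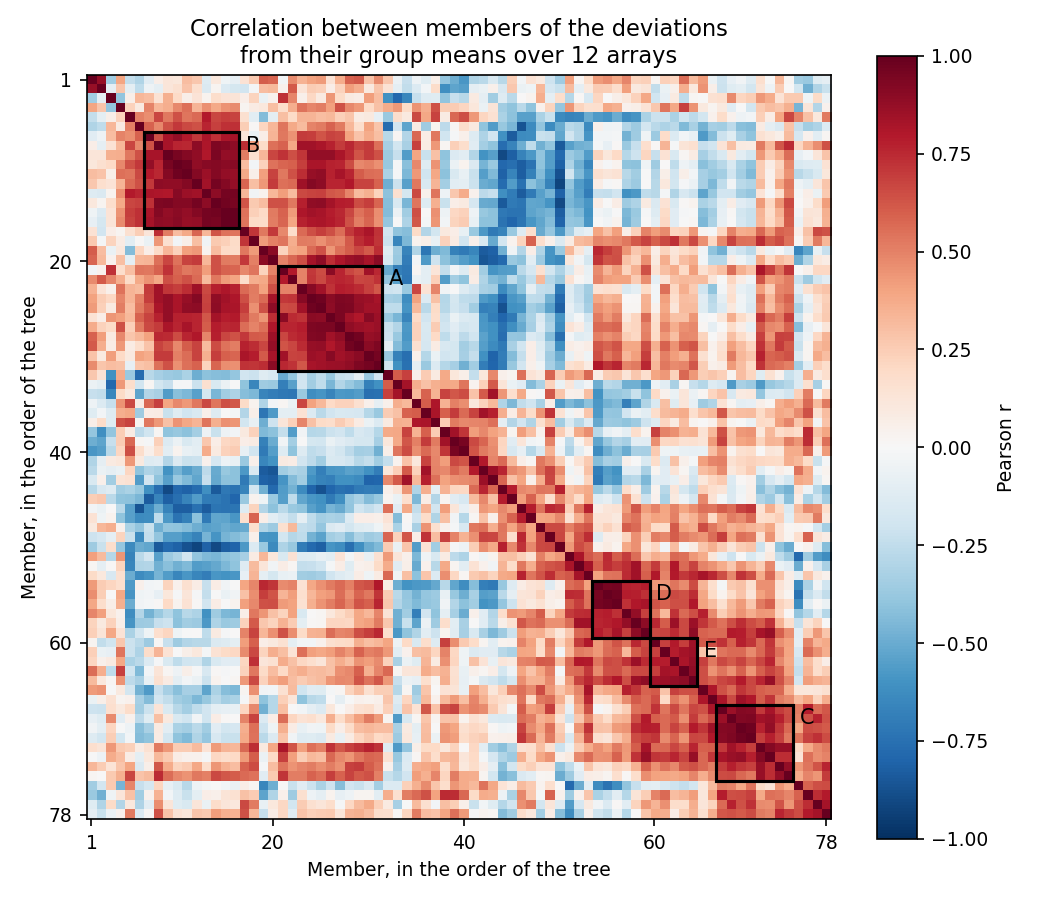
Pearson r (colour) between the 78 circRNAs (both axes, in the order of the tree) of their deviations from group means over 12 arrays; boxes mark sets A to E. The boxes are dark red, A and B are also positively related to each other (median r of 0.68), and the remaining pairs are mixed, with a median of 0.17 over all 3003 pairs.

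**Figure D5:**
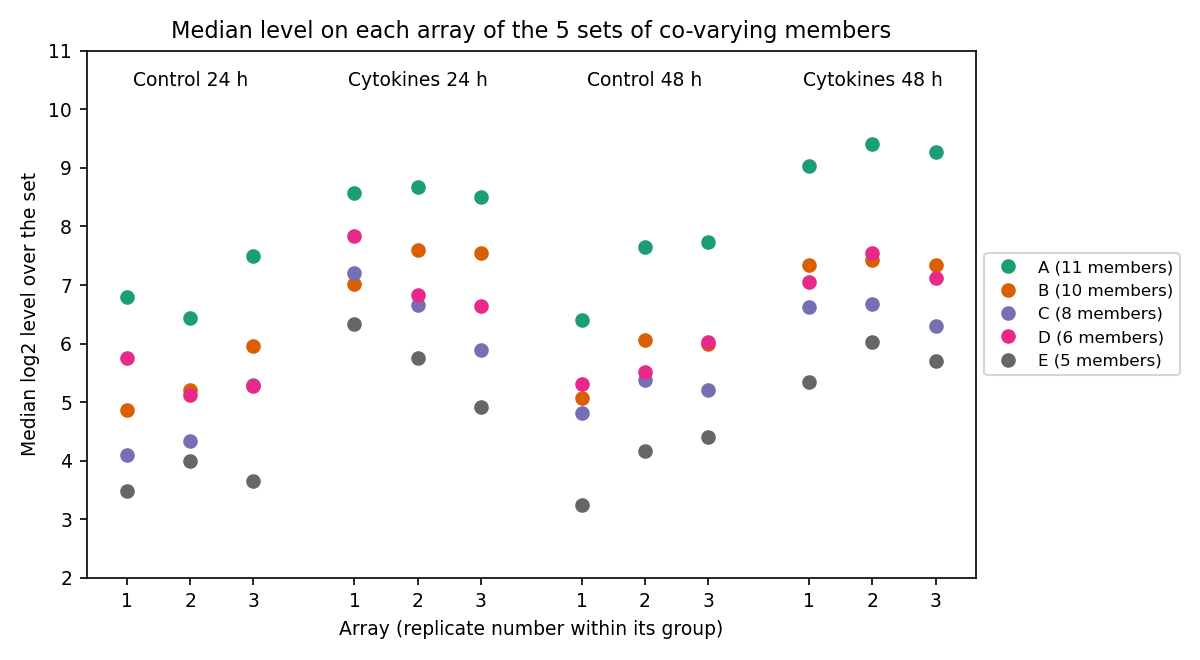
Median log2 level over the members of each set (vertical axis) on each array (horizontal axis, by group and replicate number). In sets A and B the third Control 24 h array and the second and the third Control 48 h arrays stand above the other untreated arrays, and in sets C, D and E the first Cyt 24 h array stands above the third.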

How the data were processed

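Per the labels, total RNA of 12 EndoC-βH1 samples was digested with RNase R, labelled with Cy3 and hybridized to the Arraystar Human circRNA Array V2. The authors deposited each array's scanner output (Feature Extraction 11.0.1.1), whose intensity columns hold signal, local background and background-subtracted processed signal, with flags coded 0 or 1. They also deposited a table of log2 values, quantile normalized by the authors, which follows the signal before subtraction.

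The log2 processed intensity of the 13617 circRNA probes was quantile normalized. The 10211 probes that passed the positive, significance and background flags on 3 or more arrays were fitted in limma 3.58.1 (R 4.3.3) with 4 group means, contrasts and eBayes without trend, and p-values were adjusted over all of them. Tables and figures were made in Python 3.11.15 with SciPy 1.17.1 and matplotlib 3.10.9.

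On simulated data with 200 of 10211 probes changed by 2 (log2) the fit recovered 87 for the difference between the changes, 156 for untreated time and 163 for cytokine time. Signal over background and the 3 arrays per group limit precision.

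The members and lists were chosen with earlier results of these data known. Members named are the 5 with the largest smaller change, 3 just inside and 3 probes just outside the threshold, the highest and lowest untreated levels, the extremes of the difference between the changes, and any called in a contrast that the rule did not use directly. Others (ASCRP3008912, ASCRP3008379, ASCRP3001475, ASCRP3009990 and the members of the closest pair) were named after their values were seen. The alternatives were other signals, scalings, filters, blocks, array weights and leaving out each array; the second slide alone was added after seeing the data. The 70 linear mRNA probes were named through RefSeq accessions (GRCh38.p14).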

Additional observations from a re-analysis of the deposited data

How the results depend on the processing

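All 78 members were higher with cytokines at both times in the mean under each other signal and scaling that was run, but the sizes depended on background subtraction. These settings reuse the spots that chose the members, so the shared direction is not separate support. Leaving out an array tests no direction here, because the rule had already set every cytokine array above every untreated one. The rule was met by 34 members with normexp correction and by 50 in the deposited log2 values, and by 71 to 78 with 1 array left out. The change of the members' median level was 1.31 at 24 h and 1.29 at 48 h in the deposited values. The changes of 12 named members were recomputed 432 times, and 384 moved by less than the spread between replicates. Most recomputations left out 1 array and so kept nearly all values, and among these 0 moved by more than that spread. The other 48 were smaller by more than the spread, all of them with normexp, the median signal or the deposited values. Although 0 changed sign, the rule had already set the sign in the leave-outs.

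In the contrasts that chose the members, limma called 26 at 24 h and 22 at 48 h with normexp. Over all retained probes, in either direction, that fit called 32 and 27. With the arrays of the groups compared alone it called 12 members at 24 h, beside 44 of all probes. With the scan run as a block it called 12 at 24 h and 4 at 48 h, beside 42 and 15. With the slide as a block it called 4 at 48 h, beside 19. With 1 array left out limma called 22 to 61 members at 24 h and 12 to 46 at 48 h. Over all fitted probes it then called 64 to 442 at 24 h and 43 to 118 at 48 h. Array weights called 1 member for the difference between the changes and 1 for cytokines at 48 h against 24 h, where every other setting run called 0. The cause was not tested.

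Arrays of the same replicate number did not deviate together (r from -0.43 to 0.42 over 18 pairs, 6 of them above 0.1), so the numbers were not taken as pairs. With the replicate block 39 members were called at 24 h and 37 at 48 h, beside 94 and 98 of all retained probes, and 0 members in each of the other contrasts. Dim members lie near background, where log2 changes are least certain.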
